A study of Rattus norvegicus with 8 samples.

Results

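The genes described here are 41 splicing factors and heterogeneous nuclear ribonucleoproteins (hnRNPs), chosen by name: abundant hnRNPs, SR proteins, the SF3A and SF3B proteins and U2AF, proteins of the U1, Sm and U5 particles, and 4 further RNA-binding regulators. Of these, 37 had at least 1 probe on the array, 63 probes in all among 41012, and 22 genes had 2 or more probes. No probe was matched to Srsf4, Tra2a, U2af1 or U2af2 by gene name, so these are not analysed here. The arrays held RNA of BRL-3A, an established line of rat liver, in 2 groups of 4: cells given an siRNA to the long noncoding RNA named lnc19959.2 (siRNA) and cells whose transfection is labelled NC (NC). All 8 samples were taken 48 h after transfection with lipofectamine 2000. Each sample was hybridised alone, with Cy3, to an Agilent whole rat genome array. The comparison asked how the liver cells' transcripts differed after the siRNA, and the level of lnc19959.2 itself was not analysed here.

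Pre-mRNA splicing is carried out by the spliceosome, whose U1 particle binds the start of an intron and whose U2 particle, with its SF3A and SF3B proteins, binds the branch point near the end. A ring of Sm proteins surrounds most of the small nuclear RNAs, and Prpf8 lies at the catalytic centre of the U5 particle. SR proteins bind exons and usually favour their inclusion, while many hnRNPs coat the nascent transcript and often repress exons. In liver and elsewhere the balance of these proteins shapes which isoforms of metabolic and structural genes are made.

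The signal of a probe is given as log2 processed intensity minus the 75th percentile of its array, so that 0 is the level of a fairly bright spot, and differences are siRNA minus NC on the log2 scale, with their standard error (SE). A gene was called when limma's adjusted p, over all 24853 probes kept, was under 0.05 at its brightest probe. All 63 member probes were kept. The labels do not state whether the 4 arrays of a group are separate cultures, and p-values then reflect array-to-array spread alone, possibly technical. Each group had its own slide and its own scan, and these effects cannot be told apart from the transfection. In such bulk RNA, fewer cells and less RNA per cell cannot be told apart either.

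The 75th percentile of intensity was 246 to 261 on NC arrays and 289 to 323 on siRNA arrays, and arrays correlated at 0.986 to 0.993 within and 0.946 to 0.962 between groups over all kept probes. Of 10 hepatocyte markers, 7 (Alb and Ttr among them) were not kept as above background, and the summed linear signal of the kept ones, relative to the 75th percentile, was 0.229 to 0.387 on NC and 4.57 to 6.37 on siRNA arrays. That rise was in Cyp2e1 (4.94 ± 0.30, SE, on the log2 scale). Hnf4a was also called higher (0.84) but was above background on 1 of 4 NC arrays. Fgb gave -0.74 ± 0.42 and was not called. Of 10 fibroblast markers, 7 were kept, with a summed signal of 605 to 620 on NC and 628 to 708 on siRNA arrays. Of these 7, 2 were called higher and 1 lower. The largest log2 differences were 2.66 for Col3a1, 0.61 for Col1a2 and -0.50 for Pdgfrb. The kept endothelial markers (4 of 7) summed to 1.496 to 2.07 on NC and 3.07 to 4.22 on siRNA arrays. By log2 difference, Kdr (1.65) and Cdh5 (0.79) were called higher, and Vwf (-4.77) and Tek (-2.26) lower. The kept cholangiocyte markers (2 of 4) summed to 1.13 to 1.42 on NC and 3.47 to 4.23 on siRNA arrays. Krt7 was called higher (1.75) and Sox9 lower (-1.01). Only 1 of the 3 kept hepatocyte, 1 of the 4 endothelial and 1 of the 2 cholangiocyte markers were above background on all 8 arrays. The sizes of the others' differences therefore rest partly on signal near background. The kept leukocyte markers (2 of 7) summed to 6.71 to 7.56 on NC and 5.64 to 6.57 on siRNA arrays. Cd68 was called lower (-2.39) and Cd14 (0.20) was not called. Pecam1, Epcam and Ptprc were not kept. The part of these markers' changes in the results on splicing factors was not tested.

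To show what the array reads in these transcripts, 10 probes that lie in coding sequence are printed 5′ to 3′ from the deposited design, each 60 bases long. In the Srsf7 probe, capitals mark the codons of arginine-serine and serine-arginine pairs, the repeat that gives SR proteins their name, and in the Hnrnpu probe those of arginine-glycine and glycine-arginine pairs, an RNA-binding motif. No letters are marked in the others. Their places on rn4 are chr6:3098759-3099596 (minus strand) for Srsf7, chr13:93980187-93980470 (minus) for Hnrnpu, chr20:7320150-7321649 (plus) for Srsf3, chr6:104731982-104732041 (plus) for Srsf5, chr5:155072514-155075933 (plus) for Hnrnpr and chr1:95859651-95859832 (minus) for Snrnp70. For Sf3b1 they are chr9:53825336-53825395 (upstream, minus) and chr9:53806757-53806897 (downstream, minus), and for Mbnl1 chr2:149982919-149982978 (upstream, plus) and chr2:149992331-149992390 (downstream, plus). Where the span exceeds 60 bases, the probe crosses an intron by its design coordinates.
Srsf7: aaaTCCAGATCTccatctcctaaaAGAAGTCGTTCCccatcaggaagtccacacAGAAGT
Hnrnpu: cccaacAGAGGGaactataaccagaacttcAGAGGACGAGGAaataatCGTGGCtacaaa
Srsf3: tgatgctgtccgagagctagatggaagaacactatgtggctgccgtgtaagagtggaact
Srsf5: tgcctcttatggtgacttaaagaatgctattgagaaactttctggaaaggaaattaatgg
Hnrnpr: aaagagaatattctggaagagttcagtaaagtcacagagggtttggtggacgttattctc
Snrnp70: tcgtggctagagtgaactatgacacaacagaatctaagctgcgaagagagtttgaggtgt
Sf3b1 upstream: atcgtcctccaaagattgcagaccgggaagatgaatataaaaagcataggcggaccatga
Sf3b1 downstream: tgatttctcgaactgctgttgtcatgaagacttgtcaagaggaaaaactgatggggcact
Mbnl1 upstream: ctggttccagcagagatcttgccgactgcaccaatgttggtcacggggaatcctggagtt
Mbnl1 downstream: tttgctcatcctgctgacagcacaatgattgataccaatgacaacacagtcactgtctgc

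Most splicing factors rose by a modest amount in the siRNA arrays. Of the 37 genes, 26 were called higher, 4 lower (Mbnl1, Sf3b1, Rbm39 and Celf1) and 7 were not called, with differences from -0.65 to 0.76 and a median of 0.26. Over all 10855 named genes tested, 36.1% were called higher and 28.9% lower, with a median difference of 0.04. The members called higher were thus 70.3% and those called lower 10.8%. None of the 63 probes reached a 2-fold difference. The groups did not overlap for 27 of the 37 genes (73.0%), against 62.4% of all genes.

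The sign of 10 of the 37 differences depended on how arrays were scaled: those of the 4 genes called lower, and of all uncalled genes but Srsf1. All 26 genes called higher stayed above 0 under each of 6 scalings, while none of the 4 called lower stayed below 0: under spike-in scaling Mbnl1 stood at 0.13, Sf3b1 at 0.28, Rbm39 at 0.31 and Celf1 at 0.32. That scaling put the median of all genes at 0.57, and median scaling put it at 0.35. Measured against the median of all genes, Mbnl1 lay at -0.44, Sf3b1 at -0.30, Rbm39 at -0.26 and Celf1 at -0.25 under the 75th-percentile scaling. Scalings that shift whole arrays, spike-in among them, leave any gap to that median unchanged by arithmetic, so its sameness checks nothing. Under quantile and cyclic loess normalization Mbnl1 stood at -0.33 and -0.40 and Sf3b1 at -0.34 and -0.36. Rbm39 stood there at -0.33 and -0.35 and Celf1 at -0.13 and -0.20, beside medians of all genes of 0.04 and 0.01. The members' median lay 0.22 above that of all genes under each scaling that shifts whole arrays, and 0.15 above under quantile and 0.16 under cyclic loess normalization. The scalings were the 75th percentile of all probes, that of the probes above background on all arrays (the bright-probe percentile), the median, the spike-in probes, and quantile and cyclic loess normalization. Median and spike-in scaling raised every difference, so a gene called higher could not fall below 0 there. By median scaling Hnrnpr passed 2-fold (1.06). By spike-in scaling Hnrnpr (1.29), Khdrbs1 (1.20), Srsf9 (1.17), Snrpd1 (1.07), Snrnp70 (1.05), Srsf3 (1.04) and Snrpa (1.003) did. Members called higher were 21 under quantile and 20 under cyclic loess normalization, against 36.1% and 33.5% of all genes. The bright-probe percentile gave 20, against 29.5%. After another background correction of the raw spots (normexp), 7 members were called higher and 0 lower by limma's adjusted p (23 and 1 at an unadjusted p under 0.05), against 11.1% higher and 7.06% lower of all genes.

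**Figure D1:**
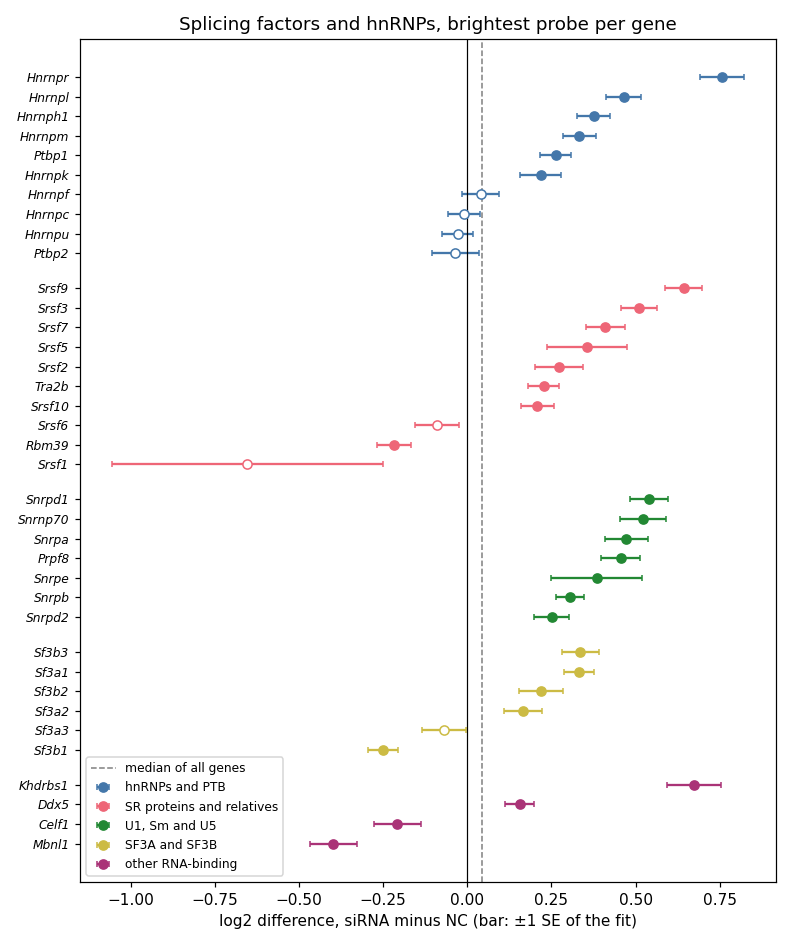
Log2 difference (siRNA minus NC, bar ±1 SE of the fit) at the brightest probe of each of 37 genes, grouped by role; filled points were called, open points were not, and the dashed line is the median of all genes (0.04). All 7 genes of the U1, Sm and U5 particles lie to the right of 0, and Srsf1 has the widest bar.

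The members are mostly bright, and brighter genes of the whole array were called higher more often. Among the 5734 genes with a mean signal over 0, 44.2% were called higher and 21.7% lower, with a median difference of 0.11. Of the 33 members in that range, 25 were called higher and 2 lower, with a median of 0.30. Among the 2092 genes with a signal over 3, 46.8% were called higher, and 18 of 22 members were. This split by signal was chosen after seeing the data.

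**Figure D2:**
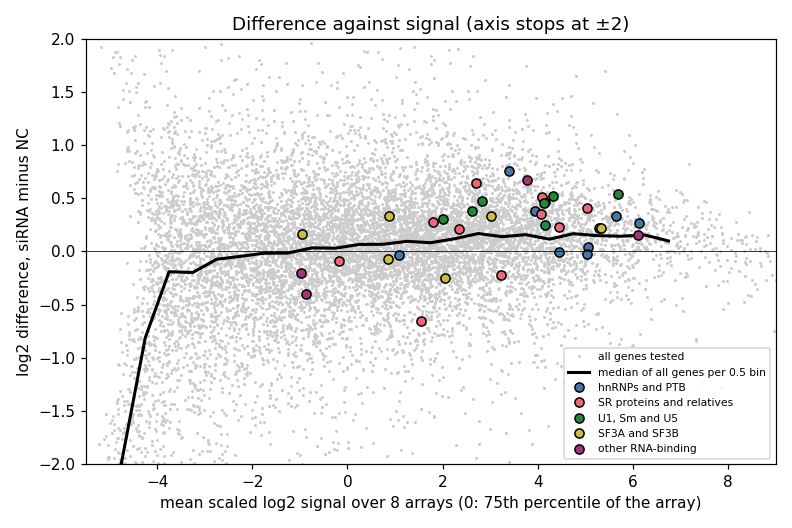
Log2 difference (siRNA minus NC) against the mean scaled log2 signal over 8 arrays, with 1 grey point per named gene tested, the black line as the median of all genes per bin of signal, and the members in colour by role; the vertical axis stops at ±2. The line rises with signal, from -0.51 at the median of genes under -3 to 0.14 over 3, and most members lie above it.

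Among the hnRNPs and PTB proteins, 6 of 10 were called higher and 0 lower by limma, against 36.1% and 28.9% of all genes. At an unadjusted p under 0.05, 0 were lower too. Under quantile and cyclic loess normalization Hnrnpc (adjusted p = 0.0370 and 0.0192) and Hnrnpu (0.0103 and 0.0163) were called lower. Hnrnpr, an hnRNP that binds nascent transcripts, rose most: its brightest probe read 3.15, 2.996, 2.88 and 3.05 on the NC arrays and 3.72, 3.81, 3.83 and 3.75 on the siRNA arrays. Every siRNA array lay above every NC array, by 0.76 ± 0.066 (SE) on average, which is 1.69-fold (adjusted p = 5.38e-05). The junction probe of Hnrnpr printed above gave 0.55 ± 0.092. Hnrnpl, which binds CA-rich RNA, read 3.99, 3.90, 3.84 and 3.92 on NC and 4.32, 4.41, 4.43 and 4.35 on siRNA arrays. The groups did not overlap, and the difference was 0.46 ± 0.052 (adjusted p = 0.000172).

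Hnrnph1, a G-tract binder, rose by 0.38 ± 0.049, Hnrnpm by 0.33 ± 0.049, and Hnrnpk, a binder of C-rich RNA, by 0.22 ± 0.061. Ptbp1, the polypyrimidine tract binding protein that represses many neuronal exons outside the brain, rose by 0.26 ± 0.045, and its second probe by 0.21 ± 0.056. Its neuronal paralogue Ptbp2 gave -0.04 ± 0.070 and was not called (adjusted p = 0.674). Hnrnpc, which coats introns at U-rich tracts, gave -0.01 ± 0.048, and Hnrnpf gave 0.04 ± 0.055. These 3 genes had overlapping groups and adjusted p-values of 0.544 to 0.871. All 3 were called higher under median and spike-in scaling. The call of Hnrnpk was lost under quantile (adjusted p = 0.122) and cyclic loess normalization (0.106) and the bright-probe percentile (0.0523).

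Hnrnpu, a nuclear matrix and RNA-binding protein, is the only member whose probes were called in opposite directions. Its brightest probe, in the arginine-glycine stretch printed above, read 5.05, 5.04, 5.07 and 5.02 on NC and 5.07, 5.06, 4.99 and 4.95 on siRNA arrays, so that the groups overlapped (difference -0.03 ± 0.047, adjusted p = 0.615). Its call depended on the scaling: lower under quantile (-0.17) and cyclic loess normalization (-0.15), higher under median (0.28) and spike-in scaling (0.50). The probe at chr13:93979388-93979447 read 4.31, 4.26, 4.38 and 4.29 on NC and 4.14, 4.18, 4.11 and 4.05 on siRNA arrays, a fall of -0.19 ± 0.050 (adjusted p = 0.0113). The probe at chr13:93979149-93979208, on the same strand and further downstream, read 4.21, 4.23, 4.25 and 4.30 on NC and 4.41, 4.45, 4.59 and 4.41 on siRNA arrays, a rise of 0.22 ± 0.056 (adjusted p = 0.0104). The groups did not overlap at either of the last 2 probes. By limma's adjusted p, 0 member probes were lower under median scaling, spike-in scaling or normexp. The opposite calls were therefore absent there. Over all 2949 genes with 2 or more kept probes, 187 (6.34%) had calls in opposite directions.

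Among the SR proteins and their relatives, 7 of 10 were called higher and 1 lower, against 36.1% and 28.9% of all genes. Srsf9 read 2.39, 2.38, 2.35 and 2.44 on NC and 3.01, 3.01, 3.16 and 2.96 on siRNA arrays. The groups lay well apart, with a difference of 0.64 ± 0.055 or 1.56-fold (adjusted p = 5.07e-05). Srsf3, a small SR protein that also acts in mRNA export, read 3.90, 3.78, 3.78 and 3.88 on NC and 4.29, 4.42, 4.35 and 4.31 on siRNA arrays at its junction probe. All siRNA arrays were above all NC arrays (0.51 ± 0.053, adjusted p = 0.000126), and its other probe rose by 0.31 ± 0.066.

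The arginine-serine probe of Srsf7 rose by 0.41 ± 0.058, while its other probe, near background at -3.78 in both groups, gave 0.00 ± 0.11. Srsf2 rose by 0.27 ± 0.070, Srsf10 by 0.21 ± 0.049 (0.09 and not called under cyclic loess normalization) and Tra2b, a splicing activator related to SR proteins, by 0.23 ± 0.047. Srsf5 rose at its brightest probe by 0.36 ± 0.12 with overlapping groups (adjusted p = 0.0317), and it did not pass in 10 of the 19 alternatives. These included leaving out NC replicate 3 or 4 or siRNA replicate 1, 2 or 3, with adjusted p-values of 0.0640 to 0.0802. The coding probe of Srsf5 printed above, almost as bright, gave 0.01 ± 0.066 and its dimmest probe 0.14 ± 0.086. Srsf6 gave -0.09 ± 0.066 and was not called.

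Rbm39, an SR-related partner of U2AF, was called lower. It read 3.34, 3.40, 3.35 and 3.30 on NC and 3.07, 3.07, 3.20 and 3.17 on siRNA arrays, with no overlap (-0.22 ± 0.051, adjusted p = 0.00649). Its dimmer probe, at chr3:146571193-146571252, gave -0.54 ± 0.098 (adjusted p = 0.00194). Srsf1, the founding SR protein, was chosen for description after its values were seen. It read 2.03, 1.85, 1.76 and 1.86 on NC arrays but 1.67, 2.10, 1.12 and 0.01 on siRNA arrays. The siRNA arrays spread widely and 1 of them was above all NC arrays, so the difference of -0.65 ± 0.40 did not pass (adjusted p = 0.190). Without siRNA replicate 4 it was -0.25 ± 0.22, and without replicate 2 it was -0.95 ± 0.36 (adjusted p = 0.0586).

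**Figure D3:**
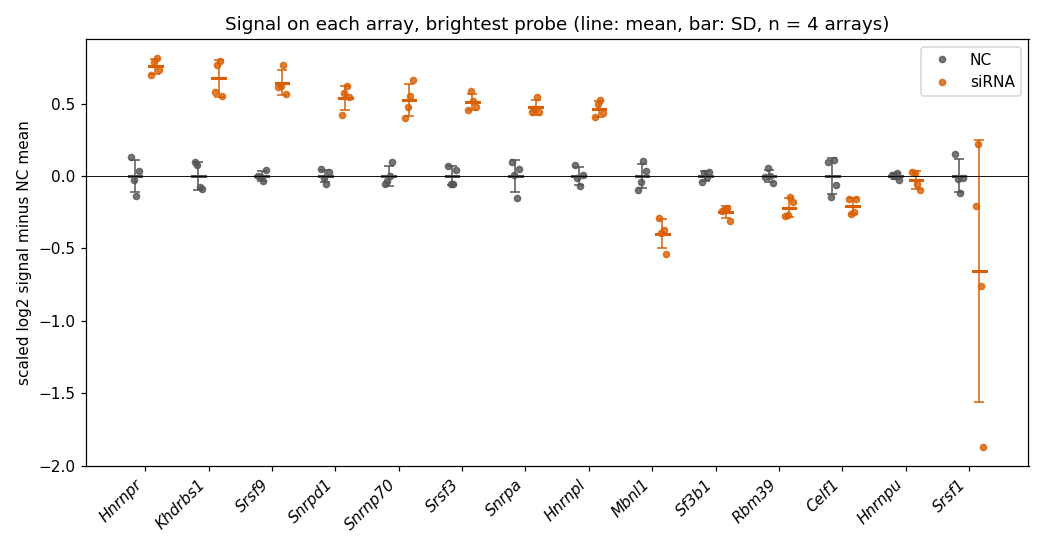
Scaled log2 signal on each array minus the gene's NC mean, for the 13 members named by rule and Srsf1, with the group mean (line) and SD (bar, n = 4 arrays per group). The siRNA points of the first 8 genes lie above all NC points, those of Mbnl1, Sf3b1, Rbm39 and Celf1 below them, and those of Srsf1 spread over about 2 units.

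All 7 genes of the U1, Sm and U5 particles were called higher, against 36.1% of all genes, with a median of 0.46. Snrpd1, an Sm ring protein, read 5.46, 5.40, 5.36 and 5.44 on NC and 5.83, 5.98, 6.03 and 5.96 on siRNA arrays. The groups did not overlap (0.54 ± 0.056, adjusted p = 0.000117), and its other probes gave 0.53 ± 0.053 and 0.55 ± 0.057. Snrnp70, the U1 protein that binds the first stem of U1 RNA, read 4.00, 4.02, 4.06 and 4.15 on NC and 4.46, 4.53, 4.60 and 4.71 on siRNA arrays. This was a rise of 0.52 ± 0.068 with no overlap (adjusted p = 0.000351). The coding junction probe printed above rose by 0.49 ± 0.082, and its dimmest probe gave 0.14 ± 0.059 (adjusted p = 0.0681).

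Snrpa, the U1 A protein, read 2.69, 2.61, 2.45 and 2.65 on NC and 3.04, 3.06, 3.15 and 3.04 on siRNA arrays. Again every siRNA array lay above every NC array (0.47 ± 0.064, adjusted p = 0.000449). Prpf8 rose by 0.46 ± 0.059, and its dim upstream probe gave 0.21 ± 0.12. The Sm genes Snrpb and Snrpd2 rose by 0.30 ± 0.042 and 0.25 ± 0.052. Snrpe, also of the Sm ring, rose by 0.38 ± 0.14 with overlapping groups (adjusted p = 0.0380), since siRNA replicate 4 read 2.40 and the other siRNA arrays 2.87 to 2.98. Without that array its difference was 0.52 ± 0.073 (adjusted p = 0.00102), but it did not pass in 12 of the 19 alternatives. These included quantile normalization (adjusted p = 0.0930), the replicate block (0.0661) and leaving out NC replicate 2, 3 or 4 or siRNA replicate 1, 2 or 3 (0.0653 to 0.0941).

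Among the 6 measured SF3A and SF3B genes, 4 were called higher and 1 lower, against 36.1% and 28.9% of all genes. Sf3a1 rose by 0.33 ± 0.044, Sf3b3 by 0.34 ± 0.054, Sf3b2 by 0.22 ± 0.064 and Sf3a2 by 0.17 ± 0.056 (adjusted p = 0.0336). The call of Sf3a2 was lost in 9 of the 19 alternatives, among them leaving out NC replicate 1, 2 or 3 or siRNA replicate 1, 2 or 4 (adjusted p = 0.0570 to 0.0815). Sf3b2 was not called under quantile (adjusted p = 0.161) or cyclic loess normalization (0.168), the bright-probe percentile (0.0781) or normexp (0.0964). Sf3a3 gave -0.07 ± 0.065 and was not called. Sf3b1, the large SF3B scaffold that holds the branch point, went the other way at its upstream probe, with 2.13, 2.19, 2.16 and 2.20 on NC and 1.92, 1.94, 1.95 and 1.86 on siRNA arrays. The groups did not overlap (-0.25 ± 0.044, adjusted p = 0.00159). Its downstream coding probe read 1.69, 1.70, 1.75 and 1.71 on NC and 1.72, 1.67, 1.67 and 1.74 on siRNA arrays. There the groups overlapped, with a difference of -0.01 ± 0.042 (adjusted p = 0.802).

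Of the remaining 4 RNA-binding regulators, 2 were called higher and 2 lower, against 36.1% and 28.9% of all genes. Khdrbs1 (Sam68), a signalling-responsive splicing regulator, read 3.53, 3.51, 3.36 and 3.34 on NC and 4.02, 4.21, 4.24 and 3.99 on siRNA arrays. The groups lay apart by 0.67 ± 0.080, or 1.59-fold (adjusted p = 0.000231), but its other probe gave 0.12 ± 0.054 (adjusted p = 0.0843). Ddx5, an RNA helicase and with Ptbp1 among the brightest members, rose by 0.16 ± 0.043. Its difference was 0.04 under quantile (adjusted p = 0.425) and cyclic loess normalization (0.366) and 0.07 under the bright-probe percentile (0.125), where it was not called. Mbnl1, a regulator of the switch from fetal to adult splicing, read -0.77, -0.71, -0.57 and -0.64 on NC and -0.96, -1.07, -1.05 and -1.21 on siRNA arrays. It was lower on every siRNA array (-0.40 ± 0.069, adjusted p = 0.00157), and its downstream coding probe gave -0.43 ± 0.053.

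Celf1, which acts against Mbnl1 on many exons, read -0.77, -1.01, -0.76 and -0.93 on NC and -1.02, -1.13, -1.11 and -1.03 on siRNA arrays. The groups nearly touched, and the difference was -0.21 ± 0.070 (adjusted p = 0.0324). The call was lost without NC replicate 1 or 3 or siRNA replicate 2 or 3 (adjusted p = 0.0794, 0.0808, 0.0821 and 0.0744), and also under quantile normalization (0.133) and with no filter on dim probes (0.0633). Its other probe gave -0.22 ± 0.063 (adjusted p = 0.0162).

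Counted by probe, 40 of the 63 were called higher and 8 lower, against 29.7% and 31.9% of all probes. Of the 22 members with several probes, 14 had every probe called in the same direction, 6 had some called in 1 direction, 1 (Hnrnpf) had none and 1 (Hnrnpu) had opposite calls. Over all 2949 genes with several kept probes, 1148 (38.9%) had every probe called in 1 direction, 1111 (37.7%) some and 503 (17.1%) none. The largest gap between probes of a gene was 0.55, in Khdrbs1. In 15 of the 22 (68.2%) the most upstream probe had the lower difference, with a median of -0.10 for upstream minus downstream. Over the 2795 genes of the array with ordered probes the share was 63.4% and the median -0.09, close to the members' values.

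**Figure D4:**
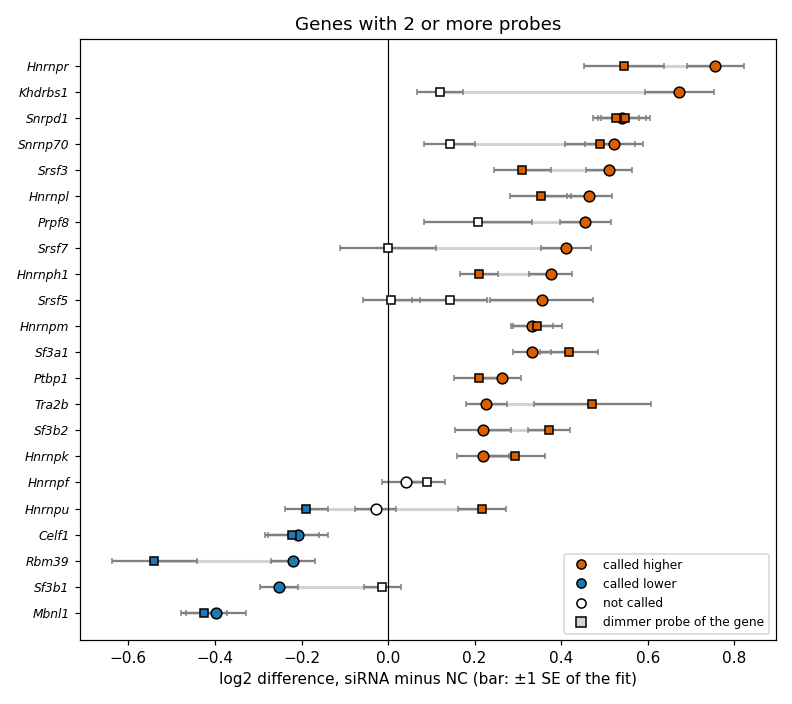
Log2 difference (siRNA minus NC, bar ±1 SE of the fit) at each probe of the 22 genes with 2 or more probes; circles are the brightest probe, squares the dimmer ones, and fill shows the call. Snrpd1 probes span 0.022, while those of Khdrbs1, Srsf7 and Hnrnpu differ by over 0.4.

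RefSeq promoters, 250 bases before to 50 after the start on GRCr8, were found for 36 of the 37 measured members. Their median GC content was 61.2%, against 52.3% over 27457 genes. Letters were searched on both strands: the GC box GGGCGG was in 22 of 36 (34.9% of all promoters), CCAAT in 17 of 36 (37.7%) and CCGGAAGT, the core bound by ETS factors, in 6 of 36 (4.01%). The E-box CACGTG and TATAAA were each in 3 of 36 (6.65% and 14.3% of all). The 6 genes with CCGGAAGT were Sf3a1, Sf3a2, Sf3a3, Snrpb, Snrpe and Srsf5. Of these 6, 5 were called higher, as were 25 of the 36 members with a promoter, 12 of 17 with CCAAT, 15 of 22 with the GC box, and 3 of 3 each with the E-box and TATAAA. The share called higher over all genes was 36.1%. These matches describe letters and were not tested. The 250 bases before the start are shown for Hnrnpr, which rose most (chr5:153826269-153826518, plus strand), and for Snrpb, whose stretch holds the GC box, CCAAT and the ETS core (chr3:137832480-137832729, minus strand), with the letters of these motifs, on both strands, in capitals.
Hnrnpr promoter: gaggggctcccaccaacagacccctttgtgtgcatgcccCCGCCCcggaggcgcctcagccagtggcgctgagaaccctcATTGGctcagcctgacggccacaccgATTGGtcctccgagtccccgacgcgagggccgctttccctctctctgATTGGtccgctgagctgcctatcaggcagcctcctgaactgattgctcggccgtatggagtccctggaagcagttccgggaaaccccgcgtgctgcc
Snrpb promoter: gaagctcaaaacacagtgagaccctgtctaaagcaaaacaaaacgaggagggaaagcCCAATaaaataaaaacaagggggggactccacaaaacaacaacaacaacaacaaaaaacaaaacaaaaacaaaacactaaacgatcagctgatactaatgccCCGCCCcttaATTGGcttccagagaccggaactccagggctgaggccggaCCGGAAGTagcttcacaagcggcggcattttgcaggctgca

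Other genes of the same pathway were taken from lists that do not hold the members. Of 52 further core spliceosome genes tested, 25 were called higher (48.1%) and 8 lower (15.4%), with a median of 0.17, against 36.1% and 28.9% of all genes. Lsm6, among the lower, was above background on 3 NC arrays and 0 siRNA arrays. With only probes above background on all 8 arrays, 25 of 51 were higher and 7 lower. The bright-probe percentile gave 16 higher and 12 lower, and cyclic loess normalization a median of 0.05. The lower count was 4 without NC replicate 3 and 5 without siRNA replicate 3. Snrnp40, a U5 protein, rose by 0.57 ± 0.046 (adjusted p = 3.39e-05), Ppih, a cyclophilin of the tri-snRNP, by 0.85 ± 0.084, Luc7l2, a U1-associated protein, by 0.55 ± 0.056, and Lsm3, of the ring on U6 RNA, by 0.83 ± 0.085. Of 40 further splicing regulators tested, 16 were called higher (40.0%, near the share of all genes) and 7 lower (17.5%), with a median of 0.10. The lower count was 11 under quantile and cyclic loess normalization and the bright-probe percentile. Raly, an hnRNP C relative, rose by 1.30 ± 0.12 (adjusted p = 7.95e-05), and the cold-inducible RNA-binding proteins Cirbp and Rbm3 by 0.88 ± 0.080 and 0.68 ± 0.078. Raly thus passed 2-fold, which no member did.

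Over all genes, 36.1% were called higher and 28.9% lower. Of 13 kinases, phosphatase genes and import receptors that act on SR proteins, 7 were called higher (53.8%) and 3 lower (23.1%). The lower ones were Clk1, which phosphorylates SR proteins in the nucleus (-1.03 ± 0.16, adjusted p = 0.000885), its paralogue Clk4 (-0.69 ± 0.063) and Dyrk1a (-0.62 ± 0.039, adjusted p = 1.08e-05). Clk1 read 4.55, 4.66, 4.68 and 4.48 on NC and 3.15, 3.76, 3.92 and 3.40 on siRNA arrays, with no overlap. Ppp1ca, a catalytic subunit of protein phosphatase 1, rose by 0.46 ± 0.050. These 3 lower genes stayed below 0 under all 6 scalings.

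Nonsense-mediated decay removes transcripts with premature stops, isoforms that several SR protein genes make of themselves. Of 9 genes of that pathway tested, 6 were called lower (66.7%) and 1 higher (11.1%), with a median of -0.35. Over all genes the shares were 28.9% lower and 36.1% higher. Smg9 fell by -0.89 ± 0.089 (adjusted p = 0.000103) and Smg1, the kinase of Upf1, by -0.91 ± 0.13, while Upf3a rose by 0.35 ± 0.051. Under spike-in scaling 4 of the 9 were called higher and 2 lower, with a median of 0.18. Of 17 genes of cleavage and polyadenylation, 4 were called higher (23.5%) and 5 lower (29.4%, near the share of all genes), and 2 higher without siRNA replicate 2. Pcf11, a termination factor, fell by -1.43 ± 0.089 (adjusted p = 1.08e-05) and Rbbp6 by -0.74 ± 0.070, both below 0 under all 6 scalings. Clp1 (-0.44 ± 0.062) and Cstf1 (-0.36 ± 0.058) were lower too but stood at 0.09 and 0.17 under spike-in scaling.

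Of 14 common reference genes, 7 were called higher (50%) and 3 lower (21.4%), against 36.1% and 28.9% of all genes. Their median was 0.21, beside the members' 0.26. Gusb rose by 1.18 ± 0.071 and Sdha by 0.35 ± 0.048, and Rpl13a fell by -0.55 ± 0.072.

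**Figure D5:**
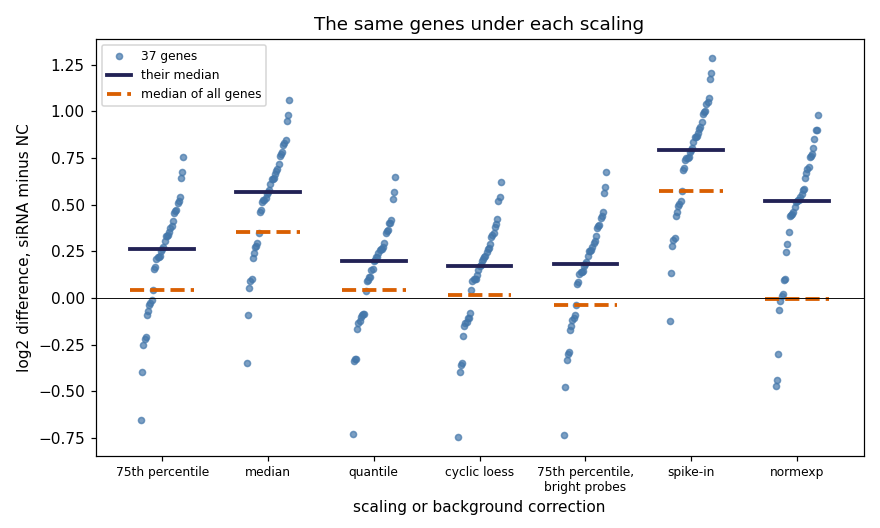
Log2 difference (siRNA minus NC) of the 37 genes under 6 scalings and under normexp background correction, each point a gene, the solid line their median and the dashed line the median of all genes. The members' median lies above that of all genes in every column, by 0.15 to 0.22 under the scalings and 0.53 under normexp, while the place of 0 moves with the scaling. Scalings that shift whole arrays give the same gap by construction.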

How the data were processed

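RNA of 4 NC and 4 siRNA samples was measured on 1-colour arrays. The deposited scanner files hold spot intensity. Agilent Feature Extraction 12.0.3.1 subtracted background and detrended it without scaling between arrays, per the file headers. Control spots and 129 to 174 outlier spots per array were left out, and 0 spots were saturated. From the deposited values, log2 of the intensity minus the array's 75th percentile was computed and spots of a probe averaged. Probes well above background on at least 3 of the 4 arrays of a group were kept (24853 of 41012). The siRNA and NC arrays were compared in R 4.3.3 using limma 3.58.1 (lmFit and eBayes, two-sided, Benjamini-Hochberg over kept probes). The number of arrays limits the precision.

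Member probes were taken by gene name (2 by an older name); other genes were named by accession or symbol through RefSeq's GRCr8 table, and each gene was read at its brightest kept probe. Coordinates come from the array design on rn4. The members and lists were chosen with earlier results of these data known. Values on every array are given for the 8 higher and 8 lower called members with the largest differences (4 were lower), for members with probes called in opposite directions, and up to 4 called genes per other list were named, leaving out 3 such genes that are not reported here; further names were chosen after their values were seen. The alternatives were other scalings, background correction, filters, leaving out each array, a replicate block, averaging a gene's probes and taking probes by accession. Replicate numbers did not pair the arrays (correlations of same-numbered deviations -0.03 to 0.21). The fit was tested on simulated data.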

Additional observations from a re-analysis of the deposited data

Results flagged for a closer look

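In 1 of the 74 groups of 4 arrays checked (37 members, brightest probe, in NC and siRNA), an array stood apart from the others by the Dixon ratio of its gap to the range. Hnrnpf read 4.95 on siRNA replicate 4, against 5.13 on each of the other siRNA arrays, a ratio of 0.972, above Dixon's critical value for 4 samples. Chance alone marks about 1 group in 20. The same array was also the lowest for Snrpe (2.40) and Srsf1 (0.01), neither of which passed this ratio.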

How the results depend on the processing

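Counts of member genes, member probes and other splicing genes (the core and regulator lists together) were recomputed under each alternative, and those of these 3 kinds not named here stayed within 1.5 times. With normexp background correction 7 member genes and 10 member probes were called higher and 0 lower, and 10 other splicing genes higher and 1 lower; the members' median SE was 0.21 there against 0.056. Median scaling left 0 member genes and 0 member probes lower, and 69 other splicing genes higher and 2 lower. Spike-in scaling left 0 member genes and 0 member probes lower, and 84 other splicing genes higher and 1 lower. The 75th percentile over bright probes gave 23 other splicing genes lower, against 15. Counting only members with a mean signal over 0, an alternative chosen after seeing the data, left 2 lower. By limma at an unadjusted p under 0.05, the member genes and probes lower were 0 and 1 under median scaling, 0 and 0 under spike-in scaling and 1 and 2 with normexp. Why the counts moved with these settings was not tested. All genes went from 3921 higher and 3134 lower to 6521 and 1658 under median scaling, 7858 and 1096 under spike-in scaling and 1208 and 766 with normexp.

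Leaving out each array in turn gave 23 to 25 member genes higher and 3 to 4 lower, 37 to 40 member probes higher and 7 to 8 lower, and 36 to 41 other splicing genes higher and 10 to 14 lower. With a replicate block, 25 member genes were called higher and 4 lower, and it changed no call of a member given on every array; 1 of 4 NC arrays correlated best with its own number. Of the members given on every array, these changed sign: under median scaling Sf3b1 stood at 0.0555, Rbm39 at 0.0879, Celf1 at 0.0987 and Hnrnpu at 0.28; under spike-in scaling Mbnl1 stood at 0.13, Sf3b1 at 0.28, Rbm39 at 0.31, Celf1 at 0.32 and Hnrnpu at 0.50; with normexp Sf3b1 stood at 0.0202 and Hnrnpu at 0.29. The uncalled Hnrnpc, Ptbp2, Sf3a3 and Srsf6 also turned positive under median scaling (0.30, 0.27, 0.24 and 0.22) and spike-in scaling, the first 3 of them also with normexp (0.25, 0.10 and 0.10), and Hnrnpf turned negative under quantile normalization (-0.09), cyclic loess normalization (-0.08) and the bright-probe percentile (-0.04). In the separate lists, the bright-probe percentile, quantile and cyclic loess normalization each gave 2 cleavage and polyadenylation genes higher, against 4, and with no filter on dim probes 5 other core genes were lower, against 8. Median scaling gave 11 of the former higher and 2 lower, 3 decay genes higher and 3 lower, and 11 reference genes higher and 1 lower. Spike-in scaling gave 13 and 2, 4 and 2, and 12 and 0, and 1 gene of the SR kinase list lower. With normexp these counts were 0 and 1, 0 and 1, and 2 and 0, and 1 and 1 for the SR kinase list. The authors' deposited series table, planned as an alternative, was not run because it holds none of the member probes. Probe signal over background did not limit members, except the dim Srsf7 probe, above background on 3 of 4 NC arrays.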
